A study of Mus musculus with 8 samples.

Results

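Car8, Slc1a6 and Gdf10 mark Purkinje cells and Bergmann glia of the cerebellum, and in the cortex libraries studied here they were chosen by gene name for their high and uneven levels in the normal diet mice. The choice also took in Pcp2, the classical Purkinje cell marker, which was not analysed here. Values were therefore at hand for 3 of 4 members, out of 13996 genes in the expression values. Because the choice used the difference between the diets and the spread among the normal diet mice, both are given for these genes as a description, with no test.

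The brain cortex was taken from male C57BL/6 mice, obtained at 8 weeks of age and sampled at 16 weeks. The normal group was 4 mice on a conventional diet, and the high fat group was 4 mice given food with 60% fat by weight for 8 weeks. Each mouse gave 1 stranded, rRNA-depleted total RNA library. Expression was given as FPKM (fragments per kilobase of transcript, scaled to mapped reads), which already corrects for length and depth and does not show how many reads a value rests on. It was rounded to 0.1, a coarse step for Gdf10.

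Purkinje cells are the output neurons of the cerebellar cortex. Their dendrites receive glutamate from the parallel fibers of granule cells and from climbing fibers, and they release calcium through the inositol trisphosphate receptor ITPR1 after activation of metabotropic glutamate receptors. CAR8 is a carbonic anhydrase-related protein without enzyme activity that binds ITPR1 and lowers its affinity for inositol trisphosphate. SLC1A6, also named EAAT4, is the glutamate transporter of Purkinje cell dendrites. PCP2 is a GoLoco protein that binds inhibitory G protein alpha subunits. GDF10 is a secreted ligand of the TGF-beta superfamily close to BMP3, and its RNA marks Bergmann glia, the radial astrocytes that wrap Purkinje cell dendrites.

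The labelled tissue was checked against marker genes, and libraries that stood apart were looked for. Cortical excitatory neuron markers had values for 12 of 12 genes. Their summed FPKM was 528.7, 410.9, 386.8 and 557.0 in normal mice 1 to 4, lowest in mice 2 and 3. In high fat diet mice it was 599.0 to 705.0. The cerebellar granule cell genes Gabra6, Cbln3 and Fat2 had a summed FPKM of 3.8 in normal mouse 1, 95.2 in mouse 2, 133.1 in mouse 3 and 27.7 in mouse 4, against 0.3 to 1.0 in the high fat diet mice, where Gabra6 was listed at 0 in mouse 1. Normal mice 2 and 3 thus had the highest sums of these genes, and normal mice 1 and 4 were also above every high fat diet mouse. Striatal neuron markers were also apart between the diets, with sums of 248.7 to 451.1 in normal diet mice and 85.6 to 96.6 in high fat diet mice. In bulk RNA, fewer cells of a type and less RNA per cell cannot be told apart.

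Car8 (ENSMUSG00000041261.9) lies on the minus strand of chr4:8143362-8239041 in GENCODE M21 on GRCm38, with 9 exon blocks and 3853 exonic bases. The pseudogene Gm11799 and the miRNA gene Gm25355 lie within its span and overlap 0 of its exonic bases. Car8 FPKM was 5.0 in normal mouse 1, 63.2 in mouse 2, 78.3 in mouse 3 and 15.6 in mouse 4. In high fat mice 1 to 4 it was 2.8, 2.9, 3.5 and 3.5. Every high fat diet mouse was below every normal diet mouse, and normal mouse 1 was closer to the high fat diet mice than to normal mice 2 and 3. Car8 averaged 40.5 ± 35.7 (SD, n = 4) across normal diet mice, against 3.18 ± 0.378 (SD, n = 4) across high fat diet mice. The difference of mean log2(FPKM + 0.1), high fat minus normal, was -2.95 with a standard error of 0.73. It was -1.46 when normal mice 2 and 3 were left out.

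Slc1a6 (ENSMUSG00000005357.9) lies on the plus strand of chr10:78780496-78814765, with 10 exon blocks and 2029 exonic bases. Slc1a6 FPKM was 4.0 in normal mouse 1, 14.8 in mouse 2, 20.7 in mouse 3 and 5.7 in mouse 4. In high fat mice 1 to 4 it was 4.4, 3.7, 3.9 and 3.6. The diets overlapped, because normal mouse 1 lay within the high fat range. Slc1a6 averaged 11.3 ± 7.86 (SD, n = 4) across normal diet mice, against 3.90 ± 0.356 (SD, n = 4) across high fat diet mice, a log2 difference of -1.22 with a standard error of 0.44. Leaving out normal mice 2 and 3 gave -0.29.

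Gdf10 (ENSMUSG00000021943.7) lies on the plus strand of chr14:33923587-33937983, with 3 exon blocks and 5210 exonic bases. Gdf10 FPKM was 0.8 in normal mouse 1, 3.0 in mouse 2, 3.9 in mouse 3 and 1.6 in mouse 4. In high fat mice 1 to 4 it was 0.8, 1.0, 0.7 and 0.7. The diets overlapped here too, again through normal mouse 1. Gdf10 averaged 2.33 ± 1.39 (SD, n = 4) across normal diet mice, against 0.80 ± 0.141 (SD, n = 4) across high fat diet mice, a log2 difference of -1.23 with a standard error of 0.41. The value without normal mice 2 and 3 was -0.47, and with an added constant of 1 in place of 0.1 it was -0.79. Among all genes tested, 14.7% had every high fat diet mouse below every normal diet mouse, as Car8 had and the other genes did not.

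**Figure D1:**
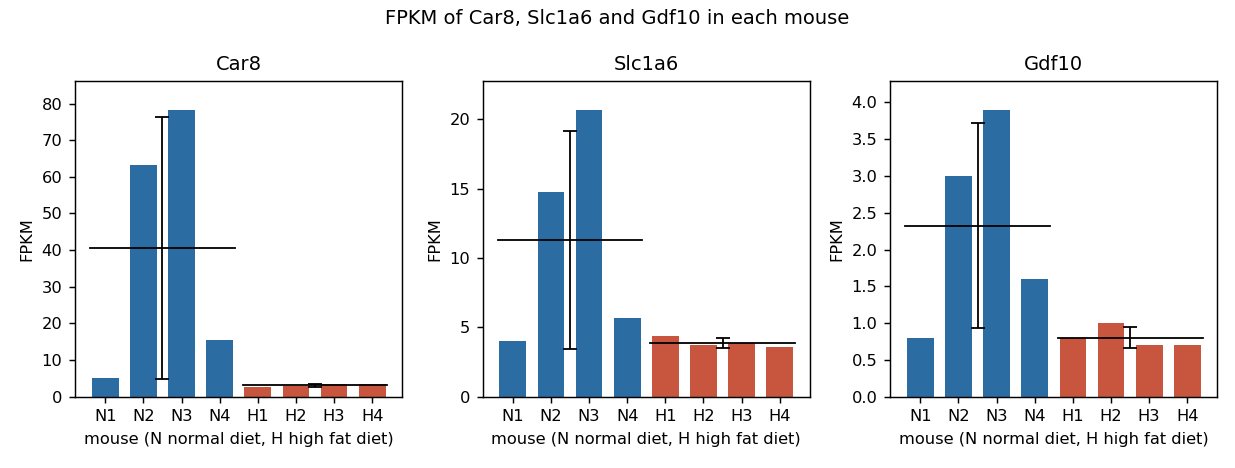
FPKM of Car8, Slc1a6 and Gdf10 (y axes, each with its own scale) in normal diet mice N1 to N4 (blue bars) and high fat diet mice H1 to H4 (red bars). Black lines are the diet means and whiskers 1 SD over 4 mice. Mice N2 and N3 were highest for all 3 genes, and N1 was near the level of the high fat diet mice.

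The normal diet mice had the same order for all 3 genes, with mouse 1 lowest, then mouse 4, mouse 2 and mouse 3. Of all genes tested, 7.22% had this order, and 26.0% had mice 2 and 3 both above mice 1 and 4. The highest normal diet mouse was 15.7 times the lowest for Car8, 5.17 times for Slc1a6 and 4.88 times for Gdf10. Within the high fat diet the same ratios were 1.25, 1.22 and 1.43. On the log2(FPKM + 0.1) scale, the SD among normal diet mice was 1.85 for Car8, 1.11 for Slc1a6 and 0.96 for Gdf10, larger than in 99.9%, 99.6% and 99.4% of genes. Among high fat diet mice these SDs were 0.17, 0.13 and 0.22. Over all genes the median SD was 0.12 in normal diet mice and 0.10 in high fat diet mice. Without normal mouse 1 the SD of Gdf10 was 0.63.

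**Figure D2:**
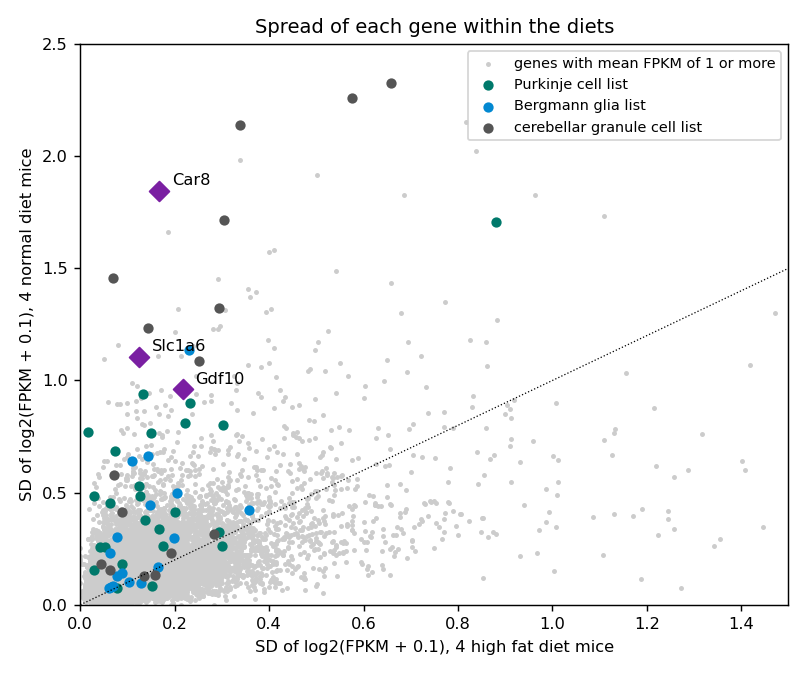
SD of log2(FPKM + 0.1) among the 4 normal diet mice (y axis) against that among the 4 high fat diet mice (x axis), with 1 point per gene. Grey points are genes averaging 1 FPKM or more (16 lie outside the axes), colored points the marker lists and diamonds Car8, Slc1a6 and Gdf10. The diamonds lie far above the dotted line of equal spread, at 1.85, 1.11 and 0.96 on the y axis.

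Most of the excess of the normal diet over the high fat diet came from the same mice. The excess is the FPKM of a normal diet mouse minus the mean of the high fat diet mice. For Car8 it was 1.82 FPKM in normal mouse 1, 60.0 in mouse 2, 75.1 in mouse 3 and 12.4 in mouse 4. For Slc1a6 it was 0.10, 10.9, 16.8 and 1.80 FPKM in that order, and for Gdf10 0.00, 2.20, 3.10 and 0.80 FPKM. Mice 2 and 3 held 90.5% of the summed excess of Car8, 93.6% of that of Slc1a6 and 86.9% of that of Gdf10. The same share was 88.7% for Gabra6, 87.3% for Cbln3 and 89.2% for Fat2, which mark granule cells. The part of these granule cell genes in the levels of Car8, Slc1a6 and Gdf10 was not tested. With the mean log2 level of the 16 granule cell list genes as a covariate, the log2 differences between diets turned to 0.32 for Car8, 0.66 for Slc1a6 and 0.47 for Gdf10. All high fat diet mice were below all normal diet mice in the summed FPKM of that list (184.0 to 189.8 against 212.7 to 617.6). The covariate and the diet therefore cannot be fully told apart in this fit.

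The order of levels differed between the diets. In each normal diet mouse Car8 had the highest FPKM of these genes, followed by Slc1a6 and then Gdf10. In each high fat diet mouse Slc1a6 was highest, at 3.6 to 4.4 FPKM, and Car8 lay below it at 2.8 to 3.5 FPKM, without overlap but with ranges only a rounding step of 0.1 apart. Gdf10 was lowest in all 8 mice. By mean FPKM, Car8 was above 86.5% of genes in normal diet mice and above 21.2% in high fat diet mice. Slc1a6 moved from 54.3% to 25.4% and Gdf10 from 15.5% to 0.422%. Nearly all genes in the expression values (13994 of 13996) averaged 1 FPKM or more over the 8 mice. Gdf10 reached that level through the normal diet mice alone, so its low place on the high fat diet is partly set by which genes are listed.

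**Figure D3:**
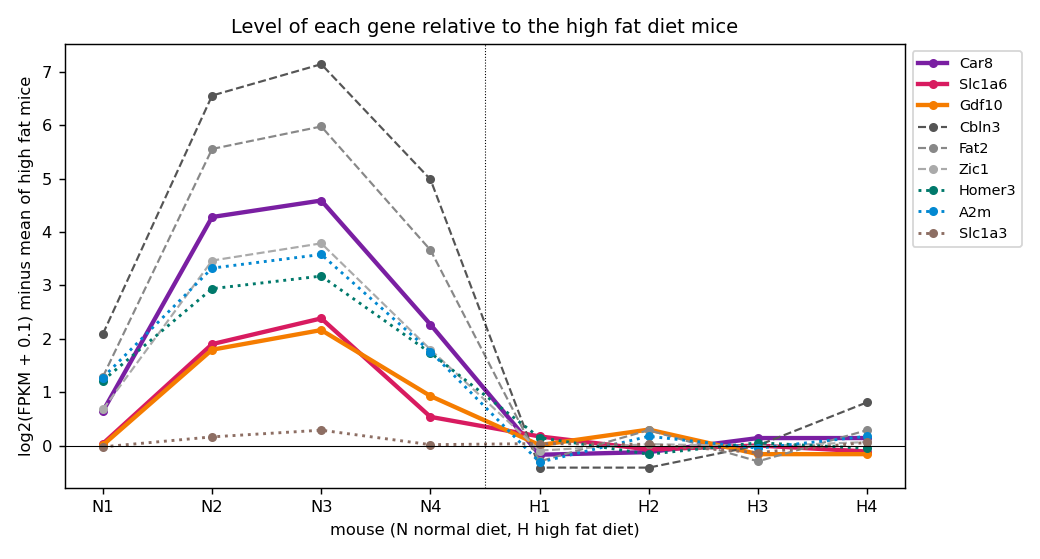
log2(FPKM + 0.1) of each gene minus its mean over the high fat diet mice (y axis) in each of the 8 mice (x axis). Solid lines are Car8, Slc1a6 and Gdf10, dashed lines granule cell genes, dotted lines other Purkinje cell or Bergmann glia genes. All lines were highest in normal mice 2 and 3, that of Slc1a3 by little. Slc1a6 and Gdf10 ran close together.

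Upstream sequence of Slc1a6 and Gdf10 is shown because these genes had nearly the same profile over the mice. The sequences are the 250 bases before the start site in RefSeq on GRCm38.p6, written 5′ to 3′ on the gene's strand, with CpG dinucleotides in capitals. The Slc1a6 sequence is chr10:78780246-78780495 and the Gdf10 sequence is chr14:33923337-33923586, both on the plus strand. These 2 of the 3 genes matched an entry, and Car8 did not.
Slc1a6: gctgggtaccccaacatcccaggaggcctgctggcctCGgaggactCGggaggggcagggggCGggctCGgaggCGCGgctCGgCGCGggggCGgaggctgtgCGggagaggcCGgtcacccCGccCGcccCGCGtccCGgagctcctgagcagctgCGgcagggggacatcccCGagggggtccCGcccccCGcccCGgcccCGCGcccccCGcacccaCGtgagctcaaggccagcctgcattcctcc
Gdf10: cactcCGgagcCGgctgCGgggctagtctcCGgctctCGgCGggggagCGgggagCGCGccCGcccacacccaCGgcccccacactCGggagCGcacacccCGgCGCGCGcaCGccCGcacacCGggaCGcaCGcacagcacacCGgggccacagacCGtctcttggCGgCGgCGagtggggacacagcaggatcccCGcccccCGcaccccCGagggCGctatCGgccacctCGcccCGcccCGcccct
Both were rich in G and C. Over the 300-base entry, which adds 50 bases after the start, Slc1a6 had a GC content of 75.7% and 32 CpG, above 96.7% and 90.5% of 32851 mouse promoters. Gdf10 had 77.3% and 42 CpG, above 97.8% and 97.0% of them. The median promoter had 7 CpG. Motifs were searched on both strands of the 300 bases, none containing another: AGGTCA, which 16.3% of all promoters hold, the palindromic EBF motif (0.904%), TAATTA (5.29%) and TATAAA (13.6%). None matched in either entry, which says only that these letters are not in this window.

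The genes nearest to each profile were found by the root mean square difference of log2(FPKM + 0.1), centred on the mean over the 8 mice, with small values for like profiles. Slc1a6 and Gdf10 differed from each other by 0.22, which placed Gdf10 at rank 9 for Slc1a6 and Slc1a6 at rank 8 for Gdf10. Car8 moved further and differed from them by 1.01 and 1.04. Nearest to Car8 were En2 at 0.26 and Mybpc3 at 0.33, followed by Zic1, Bcl2l15 and Il16. En2, an engrailed homeobox gene of the developing midbrain and cerebellum, had 0.2, 4.2, 6.1 and 1.1 FPKM in normal mice 1 to 4 and 0.1 to 0.2 FPKM in the high fat diet mice. Nearest to Slc1a6 were Inadl at 0.10 and Gprc5c at 0.15, followed by Zic4, Zfp521 and Cep76. Inadl, a PDZ scaffold gene, had 4.0, 16.4, 20.4 and 6.5 FPKM in normal diet mice and 3.8 to 4.1 in high fat diet mice. Nearest to Gdf10 were Inadl at 0.18 and Zic2 at 0.19, followed by Cep76, Zfp521 and Chd7. To the mean profile of the genes, Neurod1 at 0.22 and Atp2a3 at 0.22 were nearest, followed by Cdh15, the lincRNA RP23-433F5.1 and Inadl. All of these genes had the normal diet mice in the same order as Car8, which 7.22% of all genes tested had. They were chosen for likeness to profiles with that order, so sharing it is no separate result. The measure depends on the added constant: with 1 in place of 0.1, only 1 of the 5 genes nearest to Car8, 2 of those for Slc1a6, 0 of those for Gdf10 and 1 of those for the mean stayed among the nearest 5.

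The other genes of the same cells were then tested for a diet difference in log2(FPKM + 0.1) by a two-sided limma fit. A gene was counted as changed at a Benjamini-Hochberg adjusted p below 0.05 over 13982 genes. Of these, 15.3% were lower and 17.7% higher on the high fat diet. With a change of over 50% in addition, 2.9% were lower and 4.23% higher. The p-values set the diet difference against the spread between mice, pooled over both diets. The lists were drawn up with earlier results of these data known. A gene whose mean was below 1 FPKM in 1 diet was tested only because the other diet was higher, which favors a difference. Over all genes tested, 177 had a high fat mean below 1 FPKM, of which 81 were lower, and 223 had a normal diet mean below 1 FPKM, of which 100 were higher. As background, many genes of the Purkinje cell and Bergmann glia lists are not particular to the cerebellum. Pcp4, Calb1, Pvalb, Foxp2 and Itpr1 are also expressed in forebrain neurons, and Slc1a3 in forebrain astrocytes, so a count over these lists is not a count of cerebellar genes.

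In the Purkinje cell list, 24 of 31 genes had values, none at 0. On the high fat diet 12 were lower and 4 higher, and 11 were lower by over 50%. Their median log2 difference was -0.63, against 0.00 over all genes tested, and 9 genes had every high fat diet mouse below every normal diet mouse. Normal mice 2 and 3 were both above mice 1 and 4 in 19 of the 24, and 11 had the order of Car8. The largest falls were in Arhgef33, a guanine nucleotide exchange factor gene (log2 difference -3.11, SE 0.77, adjusted p = 0.0137), and Homer3, a scaffold of metabotropic glutamate receptors (-2.27, SE 0.38, adjusted p = 0.00274). Casq2, a calcium store protein, fell by 1.91 (adjusted p = 0.00557) and Pcp4, a calmodulin regulator, by 1.44 (adjusted p = 0.00014). When the fit was repeated without each mouse, 6 of the 12 lower genes passed in all 8 fits: Calb1, Pcp4, Plcb4, Homer3, Casq2 and Arhgef33. Without normal mouse 2 the number of lower genes was 6, and without normal mice 2 and 3 it was 7, with Pcp4, Homer3 and Casq2 among them and Arhgef33 not. With the granule cell covariate 2 were lower, Pcp4 and Itpka.

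Of the 12 lower genes, Arhgef33, Casq2 and Ebf1 had a high fat mean below 1 FPKM and were tested only through the normal diet mice. Arhgef33 FPKM was 0.9, 9.5, 13 and 2.7 in normal mice 1 to 4 and 0.6, 0.2, 0.2 and 0.9 in high fat mice 1 to 4, so the diets met at 0.9. With an added constant of 1 its log2 difference was -1.97, the same as that of Homer3. That of Casq2 was then -1.29 and that of Ebf1 -0.82. Without normal mice 2 and 3 the log2 difference of Arhgef33 was -1.74 (adjusted p = 0.0813).

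Homer3 shows how these genes varied. Its FPKM was 6.4, 21.3, 25.1 and 9.2 in normal mice 1 to 4 and 2.4 to 3.0 in the high fat diet mice, in the same order as Car8 and without overlap. Pcp4 differed from this pattern. Its FPKM was 525.2, 577.6, 532.4 and 384.3 in normal mice 1 to 4 and 176.3 to 192.2 in the high fat diet mice, so that normal mouse 1 was close to mice 2 and 3 and mouse 4 was lowest. Penk, a striatal neuron gene, also had normal mouse 4 lowest, at 131.5, 114.4, 118.5 and 71.3 FPKM in normal mice 1 to 4. Pcp4 still fell by 1.29 without normal mice 2 and 3 (adjusted p = 0.00192).

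The other genes of the list are named after their values were seen. Calb1, the calcium buffer calbindin, fell by 1.06 on the log2 scale (adjusted p = 0.00457), and Pvalb, the calcium buffer parvalbumin, by 1.07 (adjusted p = 0.0367). Ebf1, Rgs8, Plcb4, Inpp5a, Foxp2 and Itpr1 were the remaining lower genes. The calls of Pvalb, Rgs8, Inpp5a and Itpr1 were lost without normal mouse 2, without normal mouse 3 and without each of at least 3 high fat diet mice, and those of Ebf1 and Foxp2 without normal mouse 2. The higher genes included the transcription factor gene Foxp4 (0.58) and the channel genes Kcnma1 (0.36) and Cacna1a (0.24), of which Cacna1a did not pass in 5 of the 8 fits with a mouse left out, those without normal mouse 1, 2 or 4 or high fat mouse 2 or 3.

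In the Bergmann glia list, 17 of 19 genes had values. On the high fat diet 6 were lower (35.3%, against 15.3% of all genes tested) and 0 higher (against 17.7%). In 3 of the 17 the fall was over 50%, against 2.9% of all genes tested. The list had a median log2 difference of -0.28. Normal mice 2 and 3 were both above mice 1 and 4 in 15 of the 17, against 26.0% of all genes tested. The order of Car8 was held by 10, against 7.22%. A2m, a protease inhibitor gene, fell by 2.49 (adjusted p = 0.0045), Fabp7, the brain fatty acid binding protein gene, by 1.34 (adjusted p = 0.00257), and Tnc, the tenascin C gene, by 0.77 (adjusted p = 0.0315). A2m FPKM was 1.4, 6.1, 7.3 and 2.0 in normal mice 1 to 4 and 0.4 to 0.6 in the high fat diet mice. Its high fat mean was below 1 FPKM, so it was tested only through the normal diet mice, and with an added constant of 1 the log2 difference was -1.58. Slc1a3, the glutamate transporter GLAST and the most abundant gene of the list, did not pass the test at 154.7 against 142.6 FPKM (log2 difference -0.11, adjusted p = 0.265). The smaller falls, named after their values were seen, were in Luzp2, Acsbg1 and Gria1. The number of lower genes was 10 without normal mouse 1, 3 without normal mouse 3, 3 without high fat mouse 2, and 3 without normal mice 2 and 3. Fabp7, A2m and Luzp2 passed in all 8 fits with a mouse left out and also without normal mice 2 and 3. Tnc did not pass without normal mouse 2 or 3 or high fat mouse 2, 3 or 4, nor did Acsbg1 without normal mouse 2 or 3 or high fat mouse 2 or 4, or Gria1 without normal mouse 3 or 4 or high fat mouse 2 or 3.

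**Figure D4:**
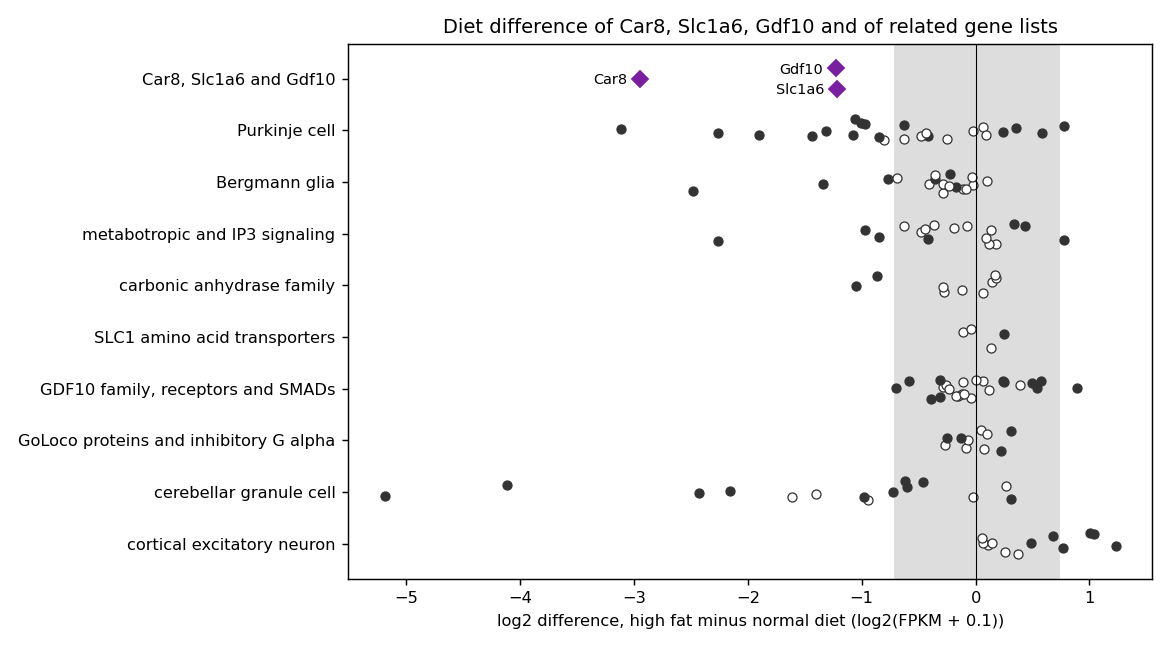
log2 difference, high fat minus normal diet (x axis), of Car8, Slc1a6 and Gdf10 (diamonds, no test) and of the genes of the lists drawn (circles, filled where the adjusted p was below 0.05). The grey band holds the central 95% of all genes tested, from -0.70 to 0.73. The lowest circle is Arhgef33 in the Purkinje cell row, A2m in the Bergmann glia row and Cbln3 in the granule cell row. Striatal, thalamic, astrocyte, oligodendrocyte and interneuron lists are not drawn.

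CAR8 acts on ITPR1, so the genes of metabotropic and inositol trisphosphate signaling were examined, 8 of which are also in the Purkinje cell list. Of 17 genes tested, 4 were lower (23.5%, against 15.3% of all genes tested) and 3 higher (17.6%, against 17.7%). All 4 lower genes are among the 8 shared with the Purkinje cell list, so they are not a separate result. The median log2 difference of the 17 was -0.19. Itpr1 itself had 137.4, 176.8, 192.8 and 134.2 FPKM in normal mice 1 to 4 and 107.1 to 140.9 FPKM in the high fat diet mice, overlapping between the diets, and fell by 0.42 (SE 0.13, adjusted p = 0.0332). It no longer passed without normal mice 2 and 3 (-0.20), without normal mouse 2 or 3 alone, or without high fat mouse 1, 2 or 4. Homer3, Plcb4 (phospholipase C beta 4, -0.97) and Inpp5a (an inositol trisphosphate phosphatase, -0.85) were the other lower genes. Homer2 (0.43) and Gna11 (0.33), named after their values were seen, were among the higher genes. Without normal mouse 4 the list had 11 changed genes.

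Among 10 carbonic anhydrase family genes, the rank of Car8 differed between mice. It ranked 8 from the highest FPKM in normal mouse 1, 2 in mice 2 and 3, and 5 in mouse 4, and 7 or 8 in the high fat diet mice. Its share of the family's summed FPKM was 1.90%, 19.4%, 24.1% and 6.29% in normal mice 1 to 4 and 1.18% to 1.48% on the high fat diet. Car2, the abundant cytosolic enzyme, was highest in every mouse and did not pass the test (90.8 against 83.2 FPKM, log2 difference -0.12, adjusted p = 0.375). Of the 9 other family genes tested, 2 were lower (22.2%, against 15.3% of all genes tested) and 0 higher (against 17.7%). Car12 had 4.5 to 5.9 FPKM in normal diet mice and 1.5 to 4.1 in high fat diet mice (-1.05, adjusted p = 0.0129), and Car14 had 5.2 to 9.8 against 3.5 to 5.0 FPKM (-0.86, adjusted p = 0.00824). Both encode membrane-bound enzymes, and neither had the normal diet mice in the order of Car8. Without normal mice 2 and 3 neither passed, although the log2 difference of Car12 was -1.13, no smaller than with all mice (adjusted p = 0.0522), and that of Car14 was -0.56 (adjusted p = 0.0564).

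**Figure D5:**
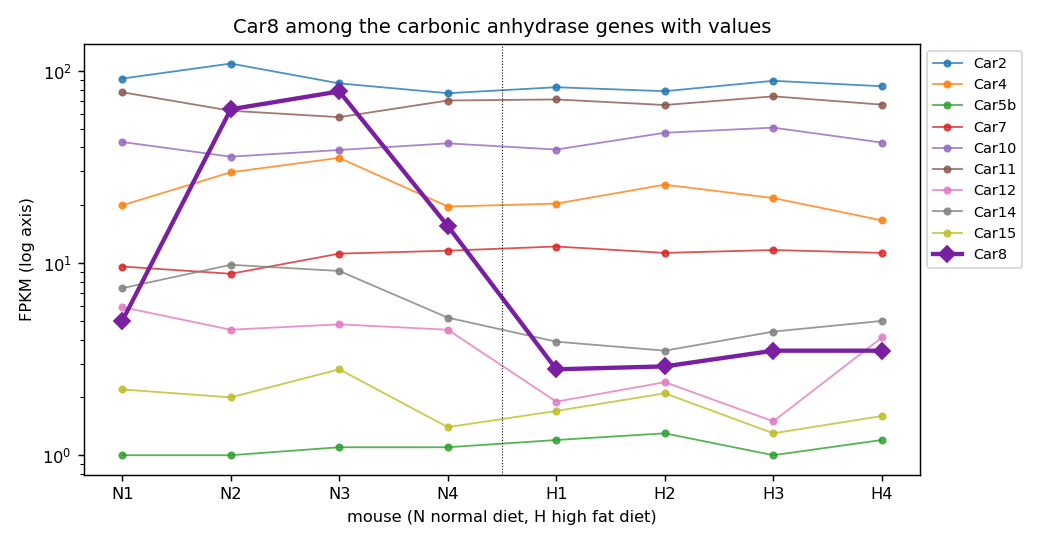
FPKM (y axis, log scale) of the 10 carbonic anhydrase family genes with values in the 8 mice (x axis, N normal diet, H high fat diet). Car8 (thick line) ranked 8 in N1 and 2 in N2 and N3 and was at 2.8 to 3.5 FPKM in the high fat diet mice.

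Slc1a6 was the lowest of the SLC1 transporter genes in 7 of 8 mice and the lowest but 1 in normal mouse 3. Its share of the summed FPKM of 5 family genes was 0.698%, 2.82%, 3.82% and 1.01% in normal mice 1 to 4 and 0.617% to 0.735% on the high fat diet. Slc1a2, the astrocyte transporter GLT-1, was highest and rose from 336.7 to 399.2 FPKM (log2 difference 0.25, adjusted p = 0.0394). It was the 1 gene of 4 tested in the family that passed, where 17.7% of all genes tested were higher. It did not pass without normal mouse 2 or 3 or high fat mouse 1, 2 or 3.

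Gdf10 was compared with the ligands, receptors and SMAD transducers of the TGF-beta superfamily. It was the lowest of 8 ligands in normal mice 1 and 4 and in every high fat diet mouse, and ranked 4 in normal mouse 2 and 3 in normal mouse 3. Its share of the summed ligand FPKM was 3.45%, 10.3%, 13.3% and 5.99% in normal mice 1 to 4 and 2.80% to 3.77% on the high fat diet. Of 24 other genes tested, 6 were higher (25.0%, against 17.7% of all genes tested) and 5 lower (20.8%, against 15.3%). The median log2 difference of the 24 was -0.10. Bmp3, the closest relative of Gdf10, moved the other way, from 2.8 to 5.1 FPKM on the normal diet to 6.3 to 6.9 FPKM on the high fat diet (0.89, SE 0.16, adjusted p = 0.00403). Acvr1c, an activin-type receptor gene, fell by 0.70 (adjusted p = 0.00272), and Acvr1b, the most abundant receptor gene of the list, rose by 0.24 (adjusted p = 0.0313). The call of Acvr1b was lost without normal mouse 2 or 3 or any high fat diet mouse. Among the others, named after their values were seen, the transducer gene Smad3 rose by 0.58 (adjusted p = 0.000307), as did the activin type II receptor genes Acvr2a (0.54) and Acvr2b (0.49), while the ligand gene Gdf11 (-0.58), the receptor gene Tgfbr1 (-0.31) and Smad5 (-0.31) were lower. These 6 passed in all 8 fits with a mouse left out.

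For the partners of PCP2, 10 GoLoco protein and inhibitory G alpha genes were tested, with a median log2 difference of -0.01. Of these, 2 were higher (20.0%, against 17.7% of all genes tested) and 2 lower (20.0%, against 15.3%). Gnao1, the most abundant, rose from 100.4 to 125.0 FPKM (0.32, SE 0.05, adjusted p = 0.00321). The others, named after their values were seen, were Gnaz (higher), Gnai3 and Gnai1 (lower). Gnao1 and Gnai3 passed in all 8 fits with a mouse left out, and Gnai1 in 0. Leaving out any mouse but normal mouse 1 or 4 brought the number of changed genes to 2.

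Lists of other cell types were read beside these results. In the granule cell list 9 of 15 genes tested were lower (60.0%, against 15.3% of all genes tested) and 1 was higher (6.67%, against 17.7%). Cbln3, a secreted cerebellin, had 1.6, 37.3, 56.1 and 12.5 FPKM in normal mice 1 to 4 and 0.2 to 0.6 FPKM on the high fat diet (log2 difference -5.19, adjusted p = 0.00348). The log2 difference was -4.12 for Fat2 (adjusted p = 0.00698), -2.43 for Zic1 (0.0118), -2.16 for Calb2 (0.0142) and -0.47 for Kcnd2, the most abundant of the list (0.00335). Cbln3 and Fat2 had high fat means below 1 FPKM, and with an added constant of 1 their log2 differences were -3.66 and -2.36. In 12 of the 15 genes tested, normal mice 2 and 3 were both above mice 1 and 4. The summed FPKM of the list was 212.7 to 617.6 in normal diet mice and 184.0 to 189.8 in high fat diet mice. On the high fat diet Gabra6, Cbln3 and Fat2 made up 0.3 to 1.0 FPKM of this sum, so nearly all of it came from other genes of the list. Of 12 cerebellar interneuron and unipolar brush cell genes, 6 had values, so the counts do not speak for the whole list. Of these 6, 0 were lower (against 15.3% of all genes tested) and 2 higher (33.3%, against 17.7%). The higher genes were Grm2 (0.75) and Sorcs3 (0.26), the latter named after its value was seen. Sums were 64.3 to 76.5 against 73.6 to 80.5 FPKM. Normal mice 2 and 3 were both above mice 1 and 4 in 3 of the 6, while Grm2 was lowest in them, at 8.8 and 7.9 FPKM. Grm2 passed with each mouse left out, and Sorcs3 only without normal mouse 4.

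Markers of the forebrain moved as well, beside 15.3% of all genes tested that were lower and 17.7% that were higher. Cortical excitatory neuron genes were higher in 6 of 12, among them Fezf2 (1.23), Tbr1 (1.04) and Cux2 (0.77). Striatal neuron genes were lower in 10 of 10, led by Adora2a (-4.07), Drd2 (-3.67), Penk (-3.24) and Rgs9 (-2.10). Adora2a and Drd2 had high fat means below 1 FPKM, and with an added constant of 1 their log2 differences were -2.80 and -2.41. Penk FPKM was 71.3 to 131.5 in normal diet mice and 9.3 to 12.3 in high fat diet mice, with normal mouse 1 highest, unlike Car8. Thalamic neuron genes were lower in 3 of 8 tested, with Prkcd at -2.37, and 6 changed without normal mouse 4. Oligodendrocyte genes were lower in 8 of 8, with sums of 2114.9 to 3487.2 against 1458.1 to 2025.9 FPKM. Astrocyte genes were lower in 3 and higher in 2 of 10, with sums of 1400.0 to 1647.8 against 1394.1 to 1491.8 FPKM, and 2 or 3 changed without normal mouse 2 or 3 or high fat mouse 1, 2 or 3. In 8 of 8 thalamic, 7 of 8 oligodendrocyte and 8 of 10 astrocyte genes, normal mice 2 and 3 were both above mice 1 and 4. This held for 0 of 12 cortical and 0 of 10 striatal genes, and for 26.0% of all genes tested. The part of these cell types in the levels of Car8, Slc1a6 and Gdf10 was not tested.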

How the data were processed

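Brain cortexes of 4 normal diet and 4 high fat diet fed mice were compared, with 1 rRNA-depleted RNA library per mouse. The deposited FPKM values were made by the authors by FastQC and Trimmomatic, STAR alignment to mm10, and Cuffnorm with GENCODE M17 (GRCm38.p6). Versions of these tools were not given. The Salmon and edgeR results of the authors were not used here. FPKM removes depth and was rounded to 0.1. The read depth of each mouse is therefore unknown, which leaves no counting interval. Summed FPKM per mouse was 562431 to 639142, and median-ratio size factors were 0.998 to 1.01. No libraries were duplicates: pairs shared at most 5.35% of values.

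Genes averaging 1 FPKM or more and without a 0 were tested (13982 of 13996). The two-sided test was limma 3.58.1 (R 4.3.3) on log2(FPKM + 0.1), allowing for a variance trend, with Benjamini-Hochberg adjustment at 0.05. Fold changes on this scale understate changes of low genes. Descriptions used pandas 2.3.3, numpy 2.4.6 and scipy 1.17.1 under Python 3.11.15, and plots matplotlib 3.10.9. The fit was tested on simulated data with independent noise of equal spread in both diets. This does not speak for genes with unequal spread between the diets. Positions come from GENCODE M21 on GRCm38, later than M17, so gene models may differ, and promoters from RefSeq.

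The genes and the 15 lists were chosen with earlier results of these data known. Named were, per list, up to 4 changed genes with the largest change of over 50% and the most abundant gene, and the 5 nearest profiles per gene. Alternatives were other added constants, filters and scalings, a fit without the variance trend, a block for the replicate number, the granule cell list as a covariate, and each mouse left out. Leaving out normal mice 2 and 3 together, and the nearest profiles with an added constant of 1, were chosen after seeing the data. Some genes of the lists count in the list totals but are not reported here by name.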

Additional observations from a re-analysis of the deposited data

Results flagged for a closer look

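In each diet group of 64 named genes, the gap of the highest or lowest mouse to its neighbor was divided by the range of the 4 mice. Of 128 such groups, 8 had a ratio above the limit for 4 mice, and chance alone exceeds that limit in about 1 of 20 groups. None was Car8, Slc1a6 or Gdf10. High fat mouse 3 was set apart as the highest for the myelin genes Mobp (402.0 FPKM, ratio 0.859) and Mbp (949.5 FPKM, 0.914), and as the lowest for Fabp7 (11.2 FPKM, 0.842). In the others the ratio was 1.0, since the remaining mice were tied after rounding. These were Bmp3 (high fat mouse 4 lowest, 6.3 FPKM), Adora2a (high fat mouse 4 highest, 0.6 FPKM), Mybpc3 (high fat mouse 2 lowest, 0.1 FPKM), Zic4 (high fat mouse 3 highest, 0.8 FPKM) and RP23-433F5.1 (high fat mouse 3 lowest, 1.0 FPKM).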

How the results depend on the processing

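The differences of Car8, Slc1a6 and Gdf10 kept their direction, and moved by less than 1 SD of the mice, under added constants of 0.5 and 1, both rescalings, the replicate block and the ratio of mean FPKM. The block is balanced over the diets and cannot change these differences, and size factors of 0.998 to 1.01 could hardly move them. The SD is a wide limit, because these genes were chosen for their spread. The difference of Gdf10 was -0.79 with an added constant of 1, against -1.23. With each mouse left out the differences ranged from -3.71 to -2.40, -1.61 to -0.83 and -1.63 to -0.91. They turned to 0.32, 0.66 and 0.47 with the granule cell covariate, and were -1.46, -0.29 and -0.47 without normal mice 2 and 3. The SD of Gdf10 on the normal diet was 0.63 to 1.15 with 1 normal diet mouse left out. The cause of these changes was not tested. All high fat diet mice were below all normal diet mice in the summed granule cell list, so the covariate and the diet cannot be fully told apart.

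Over all genes, 2480 were higher and 2146 lower, 591 and 406 of them by over 50%. With the covariate these were 276 and 247, and 153 and 111 by over 50%. Without normal mice 2 and 3 they were 1528 and 1215, and 365 and 239. The numbers changed by over 50% were 335 and 268 with an added constant of 1, and 250 and 172 at a mean FPKM of at least 5.

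With the covariate the Purkinje cell list had 1 higher and 2 lower genes, the Bergmann glia list 1 higher and 0 lower. Changed genes were then 2 (granule cell), 0 (its defining genes), 0 (interneuron), 3 (inositol trisphosphate signaling), 0 (carbonic anhydrase) and 0 (SLC1). There were 2 in the GDF10 family list, 0 in the GoLoco list, and 0 each for cortical, thalamic, astrocyte and oligodendrocyte genes. Only the striatal neuron list kept a count within the limit set for an unchanged result. The covariate is the mean of the granule cell list, so the low counts for that list and its defining genes were largely built into the fit. Without normal mice 2 and 3, 7 Purkinje cell and 3 Bergmann glia genes were lower. Changed genes were then 1 (interneuron), 0 (carbonic anhydrase), 0 (SLC1), 7 (GDF10 family) and 3 (astrocyte). Lists that moved less had 8 (granule cell), 2 (its defining genes), 6 (inositol trisphosphate signaling) and 3 (GoLoco). The same held for 5 (cortical), 10 (striatal), 2 (thalamic) and 7 (oligodendrocyte). At a mean FPKM of at least 5, 1 defining granule cell gene and 1 carbonic anhydrase gene changed. Without a variance trend 1 interneuron, 0 SLC1 and 2 GoLoco genes changed. With each mouse left out, lower genes were 6 to 16 (Purkinje cell) and 3 to 10 (Bergmann glia), and changed genes 1 to 3 (interneuron), 5 to 11 (inositol trisphosphate signaling), 0 to 1 (SLC1), 2 to 4 (GoLoco), 2 to 6 (thalamic) and 2 to 7 (astrocyte).

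The replicate numbers did not pair the mice: deviations of same-numbered mice correlated at -0.04, -0.03, -0.11 and -0.07 across genes. With the number as a replicate block, 3 Bergmann glia genes were lower, and 1 interneuron, 0 SLC1, 2 GoLoco and 3 astrocyte genes changed. Of 48 single genes, 31 lost their call with the covariate and 8 reversed: Tnc (0.043), Slc1a3 (0.13), Zic1 (0.14), Calb2 (0.20), Inpp5a (0.25), Slc1a2 (-0.037), Slc17a6 (0.59) and Aldoc (0.17). Zic1 and Calb2 are themselves part of the covariate, as are the other granule cell list genes, so the shifts of these genes were partly built into the fit. Without normal mice 2 and 3, Slc1a3 (0.00046), Slc17a6 (0.090) and Aldoc (0.011) reversed. FPKM holds no depth, and steps of 0.1 limit Gdf10 most.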
